A study of Homo sapiens with 2 samples.

Results

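The genes described here are 45 integrins and components of focal adhesions, taken as a list of gene symbols among the 20176 protein-coding genes of the annotation. They comprise 17 integrin alpha subunits, 8 integrin beta subunits, 6 integrin activators with vinculin, 5 members of the ILK, PINCH and parvin complex, 3 signalling adaptors and 6 actin linkers. For each gene, the regions of differential SMARCA4 binding that lay within 1 kb of the transcription start site (TSS) of any of its transcripts, by their nearest edge, were collected, and then those elsewhere in the gene body. Of the 12896 regions in both lists, 94 belonged to these genes, 31 of them within 1 kb of a TSS and 63 elsewhere in a gene body.

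SMARCA4 (BRG1) is a catalytic ATPase of the SWI/SNF chromatin remodelling complex. It carried a FLAG tag at its endogenous locus and was precipitated with an anti-FLAG antibody from 1 library of parental TOV21G cells, an ovarian clear cell carcinoma line with mutated *ARID1A*, and from 1 library of an EIR line, TOV21G cells resistant to an EZH2 inhibitor. The EIR cells are clone 3 of cells grown in GSK126, an EZH2 inhibitor raised stepwise from 5 through 10 and 15 to 20 μM, so that condition is 1 clone and 1 library, and the parental cells had no such selection. The tagged cells of each kind had been expanded from single colonies. The parental library held about 25600000 tags (aligned reads) and the EIR library about 35000000, and the EIR tags are given here on the parental scale, where 1 EIR tag counts as 0.733. All *P* values and intervals below compare these 2 libraries and cover counting error only, since sequenced reads without molecular identifiers are not independent molecules and no replicate shows the spread between cultures or clones.

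Integrins are heterodimers of an alpha and a beta subunit that span the plasma membrane and bind extracellular matrix proteins such as collagen, laminin and fibronectin, or counter-receptors on other cells. Inside the cell, talin and kindlin bind the beta tail and switch the receptor to its active state, while vinculin, alpha-actinin, filamin and tensin couple it to actin. The kinase PTK2 (FAK), with paxillin and BCAR1 (p130Cas), carries the signal of the adhesion inward, and the scaffold of ILK, PINCH and parvin holds the adhesion to the cytoskeleton. Epithelial and carcinoma cells commonly use beta1 integrins for matrix contact, whereas the integrins ITGAL, ITGAM, ITGAX and ITGB2 are known mainly from leukocytes and ITGA2B from platelets.

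The DNA of the start site regions that were higher in the EIR library, against the direction of most, is shown first. They lay at *ITGA1*, *ITGA2* and *TNS1*, and a stretch of each that holds no exon is printed. The printed stretches are chr5:52084249-52084472 for *ITGA1*, chr5:52284766-52285065 for *ITGA2* and chr2:218808902-218809201 for *TNS1*. For contrast, stretches from the middle of the exon-free parts of the parental-higher body regions with the most tags of *TNS3* (chr7:47482120-47482419) and *ITGB6* (chr2:161026244-161026543) are given. All are the plus strand of GRCh37, 5′ to 3′, and capitals mark a TEAD motif (GGAATG) or a GC box (GGGCGG) on either strand.
ITGA1: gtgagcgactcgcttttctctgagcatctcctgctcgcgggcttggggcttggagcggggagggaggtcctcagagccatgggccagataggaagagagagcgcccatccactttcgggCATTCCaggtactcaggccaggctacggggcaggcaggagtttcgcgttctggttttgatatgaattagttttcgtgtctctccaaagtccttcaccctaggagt
ITGA2: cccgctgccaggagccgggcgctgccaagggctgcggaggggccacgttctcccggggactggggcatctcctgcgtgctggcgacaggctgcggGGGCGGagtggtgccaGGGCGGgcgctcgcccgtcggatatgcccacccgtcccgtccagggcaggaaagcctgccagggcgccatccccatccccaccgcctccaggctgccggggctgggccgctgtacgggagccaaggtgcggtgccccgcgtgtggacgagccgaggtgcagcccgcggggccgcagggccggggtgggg
TNS1: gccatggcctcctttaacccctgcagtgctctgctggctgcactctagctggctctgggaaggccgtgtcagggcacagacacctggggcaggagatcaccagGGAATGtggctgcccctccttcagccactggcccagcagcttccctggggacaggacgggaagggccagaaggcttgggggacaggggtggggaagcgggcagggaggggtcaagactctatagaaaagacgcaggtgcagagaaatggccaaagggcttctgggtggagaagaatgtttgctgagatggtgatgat
TNS3: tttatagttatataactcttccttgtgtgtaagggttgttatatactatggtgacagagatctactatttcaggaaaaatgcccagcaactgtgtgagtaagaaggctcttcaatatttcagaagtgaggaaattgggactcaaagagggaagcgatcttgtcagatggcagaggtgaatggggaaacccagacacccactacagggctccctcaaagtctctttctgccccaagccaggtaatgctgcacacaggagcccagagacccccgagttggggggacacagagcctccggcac
ITGB6: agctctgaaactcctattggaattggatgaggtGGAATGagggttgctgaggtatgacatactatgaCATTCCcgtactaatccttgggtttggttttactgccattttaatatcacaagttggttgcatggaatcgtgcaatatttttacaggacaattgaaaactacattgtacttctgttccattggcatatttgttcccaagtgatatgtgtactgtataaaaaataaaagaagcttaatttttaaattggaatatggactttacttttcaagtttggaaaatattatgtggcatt

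The *ITGA1* stretch held 1 TEAD motif at 57.1% GC, the *TNS1* stretch 1 TEAD motif at 60.7% GC, and the *ITGA2* stretch 2 GC boxes at 77.0% GC. The *ITGB6* stretch held 2 TEAD motifs at 34.0% GC, and the *TNS3* stretch none of the motifs searched at 48.3% GC. These letters are matches to a sequence and no measurement of a bound factor.

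Where SMARCA4 binding differed near the start sites of these genes, it was mostly lower in the EIR library, as it was near start sites in general. Over all coding genes, the nearest region within 1 kb of a TSS was parental-higher for 4643 and EIR-higher for 315. Of the 45 genes, 17 had a nearest region within 1 kb of a TSS with more tags in the parental library, 3 had one with more tags in the EIR library, 6 had regions only elsewhere in the gene body, and 19 had no region in either list. Parental-higher regions lay at 4 beta integrins, both talins, kindlin-2 (*FERMT2*), PINCH1 (*LIMS1*), alpha-parvin (*PARVA*), *PTK2*, *BCAR1*, 4 actin linkers and 2 alpha integrins, *ITGA2B* and *ITGAE*. That is 50.0% of the 8 beta and 11.8% of the 17 alpha integrins, beside 23.2% of all coding genes. The groups are small, and a difference between them was not tested. The EIR-higher regions were those of the alpha integrins *ITGA1* and *ITGA2* and of the actin linker *TNS1*.

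The 17 genes are 37.8% of the list, beside 23.2% of all protein-coding genes with a parental-higher region within 1 kb. The 3 EIR-higher genes are 6.67%, beside 1.96% of all, and the 20 genes with either are 44.4%, beside 24.6% of all. These genes are long, with a median of 81.7 kb against 27.2 kb for all protein-coding genes. Among the 4463 coding genes at least as long as that median, 34.6% had a parental-higher region within 1 kb, 2.87% an EIR-higher one and 36.5% either. The shares of the list were not tested against these backgrounds, and 83.7% of all 12896 regions were parental-higher, so that direction is the common one in these lists.

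**Figure D1:**
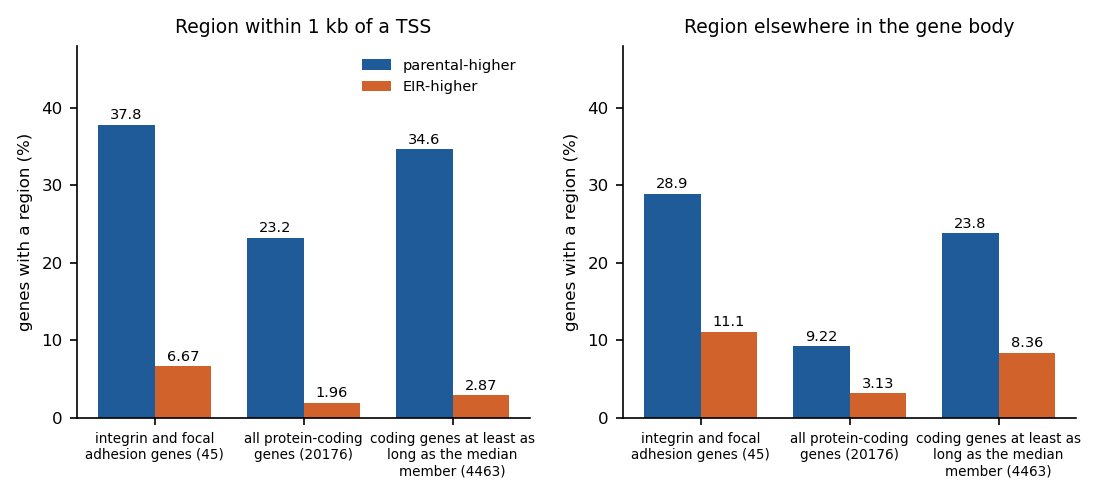
Percentage of genes that had a differential region near a TSS, within 1 kb (left), or elsewhere in the gene body (right), for the 45 genes of the list, all 20176 protein-coding genes and the 4463 coding genes at least as long as the median of the list. Blue bars are regions with more tags in the parental library and orange bars those with more in the EIR library; the blue bar of the list near TSSs is 37.8%, against 23.2% and 34.6%.

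The sizes of the differences are set beside those of all coding genes. The nearest parental-higher region of the 17 genes had a median fold of 2.24, with a median of 66.0 parental tags and a length of 752 bp, whereas over all 4643 coding genes with such a nearest region the median fold was 2.52, with 50.0 tags and 764 bp. The 3 EIR-higher nearest regions had a median fold of 3.05 with 22.0 scaled EIR tags, beside 3.37 and 19.1 for the 315 coding genes with one. An exact binomial test of the tags, adjusted by Benjamini-Hochberg over all 12896 regions, was under 0.05 for all 94 regions of these genes. The regions of the lists had been selected for a difference in the same tags, and the same test called 100% of them, so the test sets none of these genes apart.

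**Figure D2:**
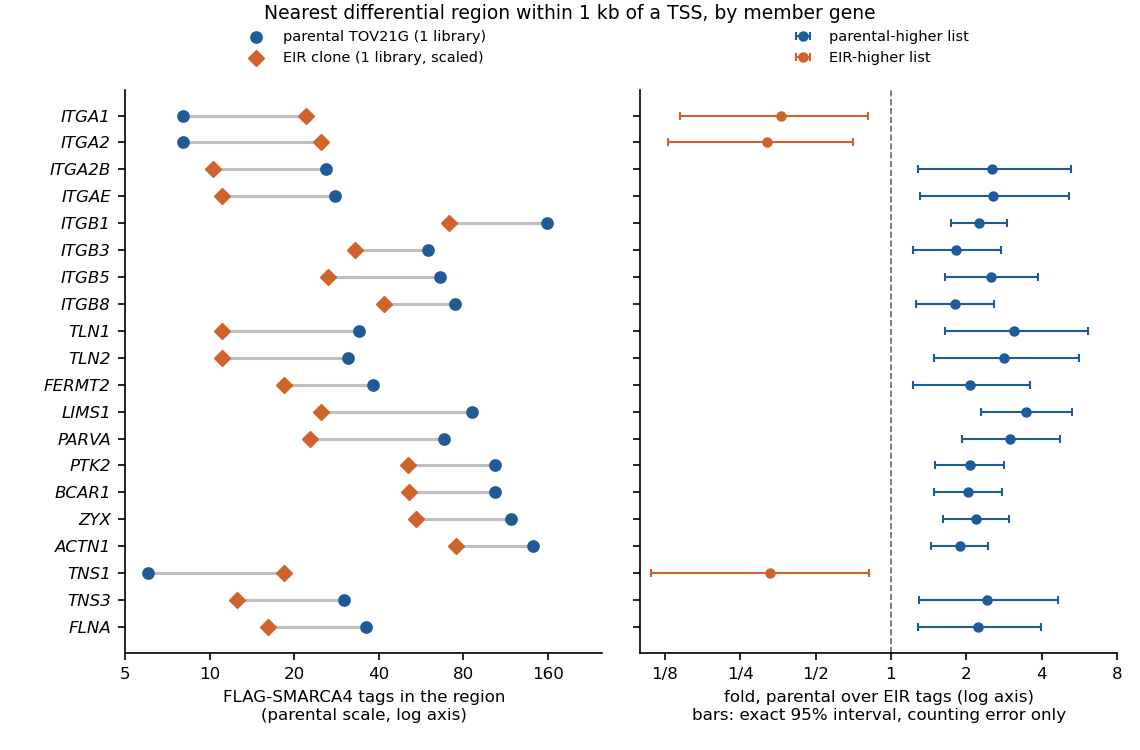
Tags of FLAG-SMARCA4 in the nearest region within 1 kb of a TSS for the 20 genes that had one (left, log axis, parental scale, circles for the parental and diamonds for the EIR library) and the fold of parental over EIR tags (right, log axis, bars for the exact 95% interval of counting error). Only *ITGA1*, *ITGA2* and *TNS1* lie left of 1, and *ITGB1* has the most tags at 159 against 71.1.

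Among the alpha integrins, which together with the beta subunit decide which ligand the receptor binds, 4 of 17 (23.5%) had a region near a TSS. That stands beside 24.6% of all coding genes, and at *ITGA1* and *ITGA2* the region was higher in the EIR library. *ITGA1* encodes the alpha1 subunit of a collagen receptor, and its region at chr5:52083972-52084472 began 222 bp downstream of the TSS of the canonical transcript and touched exon 1 and intron 1. It held 8 parental tags and 22.0 EIR tags, 2.75-fold more in the EIR library (95% interval, 1.23 to 6.94). A TSS of *PELO*, a ribosome rescue factor whose gene starts beside *ITGA1*, and that of the noncoding *PELO-AS1* lay within 1 kb of the same region, so the region cannot be assigned to 1 of them. A further EIR-higher region lay in intron 2 of *ITGA1* (chr5:52152934-52153434), with 5 parental and 17.6 EIR tags (3.52-fold, 1.32 to 11.8).

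*ITGA2* encodes the alpha2 subunit of the other main collagen-binding integrin, and is a neighbour of *ITGA1* on chromosome 5. The region at chr5:52284664-52285294 covered its canonical TSS and exon 1, within 1 kb of a TSS of the noncoding *ITGA2-AS1*. It held 8 tags in the parental library and 24.9 in the EIR library, 3.12-fold more in the latter (1.42 to 7.79). The parental counts of both genes are low, and the wide intervals follow the small numbers of tags. Outside both genes, the 1 Mb on either side of the pair held 0 parental-higher regions and 1 EIR-higher region.

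The parental-higher alpha integrin regions did not lie at the canonical start of their genes. *ITGA2B*, the platelet fibrinogen receptor subunit, had 26 parental and 10.3 EIR tags at chr17:42462317-42462951, 4066 bp into the gene across exons 4 to 7, a 2.53-fold difference (1.28 to 5.25). *ITGAE*, the subunit of intraepithelial lymphocytes that pairs with beta7, had 28 parental and 11.0 EIR tags at chr17:3627174-3627674 in intron 26, 2.55-fold (1.31 to 5.13). That region was also within 1 kb of the TSS of the kinase gene *HASPIN*, which lies in the same intron.

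Regions away from start sites gave 2 more alpha integrins, in opposite directions. In *ITGA8*, a fibronectin and nephronectin receptor subunit, 3 regions were higher in the EIR library. They held 5 against 16.9 tags at exon 30 (chr10:15557042-15557542, 3.37-fold, 1.25 to 11.4), 6 against 18.3 in intron 25 (chr10:15609720-15610220, 3.05-fold, 1.22 to 9.10) and 4 against 15.4 in intron 2 (chr10:15731922-15732422, 3.85-fold, 1.30 to 15.4). In *ITGAL*, the alpha subunit of the leukocyte receptor LFA-1, a region in intron 9 (chr16:30497809-30498309) held 19 parental and 3.7 EIR tags, a 5.18-fold difference (1.87 to 17.8). No region was listed for the other 11 alpha integrins, which include the fibronectin receptor subunit *ITGA5*, the laminin receptor subunits *ITGA3*, *ITGA6* and *ITGA7*, and *ITGAV*, and also *ITGA4*, *ITGA9*, *ITGA10*, *ITGA11*, *ITGAM* and *ITGAX*. An unlisted gene had no region called different, which does not tell whether SMARCA4 was bound there.

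The beta integrins, each of which pairs with 1 or several alpha subunits, had 35 regions, all with fewer tags in the EIR library, which is also the direction of 83.7% of all listed regions. *ITGB1* encodes beta1, the partner of most alpha subunits, and alone held 21 of the 35, in a stretch of chromosome 10 where most regions were parental-higher (described below). Its region with the most tags, chr10:33244369-33246607 in intron 1, spanned 2238 bp and held 159 parental and 71.1 EIR tags, a 2.24-fold difference (1.73 to 2.91, adjusted exact binomial *P* = 6.51e-09). The neighbouring region that covers the canonical TSS (chr10:33247005-33248105) held 132 and 71.8 tags (1.84-fold, 1.40 to 2.41). Both were within 1 kb of a TSS of the divergent noncoding transcript *ITGB1-DT*.

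The other *ITGB1* regions within 1 kb of a TSS belonged to transcripts that start upstream of the canonical one. The most distant, 47747 bp upstream (chr10:33294905-33296439), held 83 parental and 38.1 EIR tags (2.18-fold, 1.52 to 3.14), and 3 more held 19 to 44 parental tags. A further 15 regions lay elsewhere in the annotated gene, with 16 to 92 parental tags. Several of them lay 18837 to 41561 bp upstream of the canonical TSS, outside the canonical transcript. The highest of them (chr10:33270413-33271505, 92 against 45.4 tags, 2.02-fold, 1.45 to 2.84) lay 23255 bp upstream of the canonical TSS and near a start of *ITGB1-DT*. Next came 46 against 14.7 tags 20611 bp upstream of the canonical TSS (chr10:33267769-33268609, 3.14-fold, 1.82 to 5.60) and 44 against 20.5 in intron 1 (chr10:33242376-33243122, 2.14-fold, 1.31 to 3.58). The region with 38 against 17.6 (chr10:33272326-33272826, 2.16-fold, 1.26 to 3.76) lay 25168 bp upstream, also near a start of *ITGB1-DT*. The largest fold of *ITGB1* was at the small region in intron 9 (chr10:33210072-33210572), with 16 parental tags and 2.2 EIR tags, or 3 counted EIR tags (7.28-fold, 2.08 to 39.0).

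Chromosome 10, which carries *ITGB1*, *VCL* and *ITGA8*, held more differential regions per Mb away from start sites than any other chromosome. At more than 5 kb from any TSS it had 614 parental-higher regions, or 4.53 per Mb, against 1.09 per Mb over the other chromosomes, which ranged from 0.519 to 1.63. Its EIR-higher regions of that kind numbered 318, or 2.35 per Mb against 0.285. Within chromosome 10 the counts changed from one stretch to the next. The 30 to 40 Mb bin with *ITGB1* held 124 parental-higher and 11 EIR-higher regions, the 70 to 80 Mb bin with *VCL* 91 and 37, and the 10 to 20 Mb bin with *ITGA8* 27 and 40. Closer in, the 1 Mb on either side of each gene, its own regions left out, held 39 parental-higher and 2 EIR-higher regions around *ITGB1*, 30 and 5 around *VCL*, and 27 and 6 around *ITGA8*. The directions at *ITGB1* and *VCL* were thus those of most regions around them, that at *ITGA8* was opposite to most within 1 Mb, and of the 94 regions of the list 34 lay on chromosome 10. The part of this chromosome-wide excess in the results at the 3 genes was not tested. Without the genes on chromosome 10, the body regions of the list numbered 35 in place of 63.

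**Figure D3:**
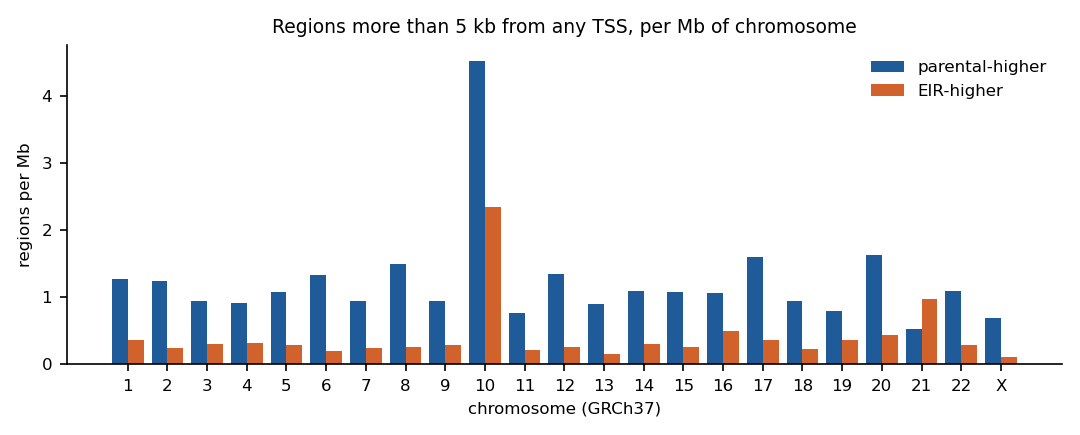
Regions more than 5 kb from any TSS per Mb of chromosome, for the autosomes and X. Blue bars are parental-higher and orange bars EIR-higher regions, and chromosome 10 stands above the others in both, at 4.53 and 2.35 per Mb.

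The remaining beta integrins near a TSS were *ITGB3*, *ITGB5* and *ITGB8*, which can all pair with alpha v and bind RGD ligands. *ITGB5* held 66 parental and 26.4 EIR tags 146 bp downstream of its canonical TSS (chr3:124605314-124606066, 2.50-fold, 1.64 to 3.87, adjusted exact binomial *P* = 5.69e-05). The differences at *ITGB8* (chr7:20370902-20371656, 75 against 41.8 tags, 1.80-fold, 1.26 to 2.58) and *ITGB3* (chr17:45331159-45331815, 60 against 33.0 tags, 1.82-fold, 1.22 to 2.74) were the smallest of the 17 genes, and their intervals overlap that of *ITGB5*. The *ITGB8* region also lay within 1 kb of a TSS of *ITGB8-AS1*, and that of *ITGB3* within 1 kb of a TSS of another coding gene that the annotation lists without a symbol.

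Inside *ITGB8* and *ITGB3* the listed folds were larger than at their start sites, at lower tag numbers. A region of few tags is listed only where its fold is large, so the lists cannot compare folds between regions of unlike tag numbers. *ITGB8* had 4 such regions. In exon 14 (chr7:20451476-20451976), 17 parental tags stood against 2.2 EIR tags, again 3 counted tags, the largest fold of all 94 regions (7.73-fold, 2.24 to 41.2). In intron 1 (chr7:20372982-20373890), 36 stood against 8.8 (4.09-fold, 2.08 to 8.64). *ITGB3* had 4 regions in intron 1 with 19 to 35 parental tags, led by chr17:45348741-45349709 with 35 against 9.5 (3.67-fold, 1.90 to 7.56). *ITGB6*, which encodes the epithelial partner of alpha v that activates latent TGF-beta, had no region within 1 kb of a TSS but 3 in its body. These held 61 against 24.2 tags across intron 6 and exon 7 (chr2:161025731-161026969, 2.52-fold, 1.63 to 3.98), 28 against 6.6 in intron 7 (chr2:161015676-161016488, 4.24-fold, 1.95 to 10.2) and 25 against 8.8 in intron 4. No region was listed for *ITGB2*, the beta subunit of leukocyte integrins, the hemidesmosome subunit *ITGB4*, or *ITGB7*.

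**Figure D4:**
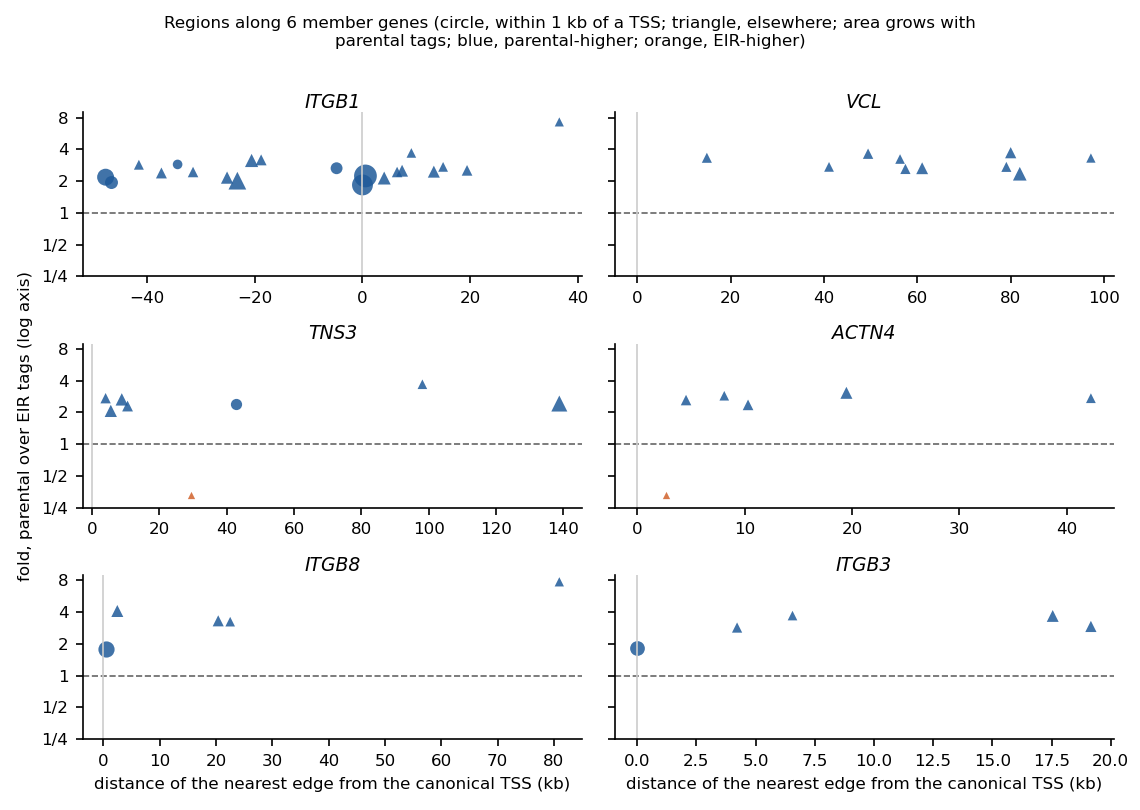
Fold of parental over EIR tags (log axis) for every region of *ITGB1*, *VCL*, *TNS3*, *ACTN4*, *ITGB8* and *ITGB3*, against the distance of its nearest edge from the canonical TSS in kb, negative upstream. Circles are regions within 1 kb of any TSS of the gene, triangles the others, the area grows with parental tags, and orange marks EIR-higher regions, of which *TNS3* and *ACTN4* have 1 each.

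Of the 6 activators with vinculin, 3 (50.0%) had a region near a TSS, all parental-higher. Such a region was found for 23.2% of all coding genes and 34.6% of those at least as long as the median of the list. Talin 1 (*TLN1*) had 34 parental and 11.0 EIR tags over its TSS (chr9:35731758-35732394, 3.09-fold, 1.64 to 6.11), a region shared with the start of *CREB3*, a transcription factor gene. Its paralog *TLN2* had 31 and 11.0 tags over its own TSS (chr15:62682581-62683081, 2.82-fold, 1.48 to 5.62). The kindlin gene *FERMT2* had 38 and 18.3 tags over its TSS (chr14:53417363-53417863, 2.07-fold, 1.22 to 3.58), 21 and 7.3 in a region 811 bp downstream, and 18 and 5.9 in intron 2. The epithelial kindlin *FERMT1* and the hematopoietic *FERMT3* had no region. The tags at both talins were among the 5 lowest of the 17 genes, and the intervals of the 3 genes overlap.

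Vinculin (*VCL*), which binds stretched talin and actin, was the gene with the most body regions after *ITGB1*, and had none within 1 kb of a TSS. Its 10 regions, all parental-higher, held 17 to 50 parental tags and spread from 14926 bp to 97192 bp downstream of the canonical TSS. The highest, in intron 6 (chr10:75839833-75840631), held 50 against 21.3 tags (2.35-fold, 1.46 to 3.85), and the largest fold was 30 against 8.1 tags in the same intron (chr10:75837883-75838383, 3.72-fold, 1.81 to 8.23). Together *ITGB1* and *VCL*, both on chromosome 10, held 25 of the 63 body regions of the list.

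In the ILK, PINCH and parvin complex, *LIMS1* and *PARVA* had the regions with the 2 largest ratios among those of more than 60 parental tags near TSSs. *LIMS1* encodes PINCH1, the adaptor that binds ILK, and held 86 parental and 24.9 EIR tags over its TSS (chr2:109150704-109151588, 3.45-fold, 2.29 to 5.30, adjusted exact binomial *P* = 3.16e-09), within 1 kb of *GCC2-AS1*. *PARVA* encodes alpha-parvin, which links ILK to actin, and held 68 and 22.7 tags over its TSS (chr11:12398999-12399981, 2.99-fold, 1.93 to 4.74, adjusted exact binomial *P* = 2.54e-06). The 3.45-fold of *LIMS1* was the largest near a TSS in the list, and its interval overlaps that of *PARVA*. The 1 Mb on either side of *PARVA* held 39 parental-higher and 2 EIR-higher regions, as many as around *ITGB1*, whereas *LIMS1* had 3 and 1 around it. *LIMS1* held 3 more regions, with 18 against 5.9 tags near another of its TSSs, and with 18 against 4.4 (chr2:109178792-109179292, 4.09-fold, 1.56 to 12.6) and 31 against 12.5 in intron 1. The scaffold gene *ILK* itself, and the paralogs *LIMS2* and *PARVB*, had no region.

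Each of the 3 signalling adaptors had at least 1 region, beside 30.5% of all coding genes, and they split by direction. Their lengths ran from 39.9 kb (*BCAR1*) to 344 kb (*PTK2*). *PTK2*, the focal adhesion kinase, held 104 parental and 50.6 EIR tags in intron 1, 209 bp downstream of its canonical TSS (chr8:142009874-142011172, 2.06-fold, 1.50 to 2.83). It had 3 further intronic regions with 23 to 28 parental tags, all parental-higher. *BCAR1*, the docking protein phosphorylated by FAK and SRC, held the same 104 parental tags and 51.3 EIR tags at an upstream start of the gene, 13465 bp before the canonical TSS (chr16:75298987-75299993, 2.03-fold, 1.48 to 2.78). Its canonical TSS was covered by a region of 87 against 44.7 tags (chr16:75284731-75285557, 1.95-fold, 1.39 to 2.75), a region 719 bp upstream of it held 84 against 46.2 (1.82-fold, 1.30 to 2.56), and intron 1 held 59 against 32.3 (chr16:75279301-75280059, 1.83-fold, 1.22 to 2.77). The 4 *BCAR1* regions thus lay within a narrow range of folds.

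Paxillin (*PXN*), the scaffold that FAK and vinculin bind, went the other way. Its only region, in intron 1 and 34940 bp from the canonical TSS (chr12:120668093-120668593), held 5 parental and 22.7 EIR tags, or 31 counted EIR tags. At 4.54-fold more in the EIR library (1.75 to 15.0) it was the largest EIR-higher fold of the list, and no region was listed at a start site of *PXN*.

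All 6 actin linkers had a region, beside 30.5% of all coding genes, and their lengths ran from 9.82 kb (*ZYX*) to 307 kb (*TNS3*). *ZYX* encodes zyxin, which is recruited to adhesions under tension, and held 118 parental and 54.2 EIR tags over its TSS (chr7:143078231-143079455, 2.18-fold, 1.61 to 2.95, adjusted exact binomial *P* = 1.51e-06). No other region lay within 1 Mb of *ZYX*. *ACTN1*, alpha-actinin 1, had the second highest level near a TSS, with 142 against 75.5 tags 4 bp from its canonical TSS (chr14:69444547-69446015, 1.88-fold, 1.45 to 2.45), close to *ACTN1-DT*, and with smaller regions of 21 against 6.6 and 25 against 9.5 tags inside the gene. *FLNA*, the actin crosslinker filamin A, had 36 against 16.1 tags over its TSS (chrX:153602817-153603507, 2.23-fold, 1.28 to 3.98). A region near another start of *FLNA* had more tags, 54 against 24.9 (chrX:153598555-153599223, 2.17-fold, 1.39 to 3.43). The intervals of *ZYX*, *ACTN1* and *FLNA* overlap one another.

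The tensins, which bind integrin tails and actin, differed in direction at start sites inside the genes. *TNS1* had its only region at an internal TSS in intron 3, 58466 bp from the canonical one (chr2:218808752-218809252), with 6 parental and 18.3 EIR tags, 3.05-fold more in the EIR library (1.22 to 9.10). *TNS3* had 30 parental and 12.5 EIR tags at an internal TSS in intron 1 (chr7:47578507-47579007, 2.41-fold, 1.29 to 4.65). Elsewhere *TNS3* had 6 parental-higher regions, led by one of 1914 bp that spanned introns 4 and 5 (chr7:47480973-47482887), with 73 against 30.1 tags (2.43-fold, 1.63 to 3.65), the stretch of DNA shown above. Of the others, 39 tags stood against 14.7 (chr7:47612374-47612874, 2.66-fold, 1.51 to 4.81) and 38 against 18.3 (chr7:47615637-47616137, 2.07-fold, 1.22 to 3.58) in intron 1, and 3 had 19 to 27 parental tags. In the same intron 1 *TNS3* had an EIR-higher region with 6 parental and 18.3 EIR tags (chr7:47591818-47592318, 3.05-fold, 1.22 to 9.10).

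*ACTN4*, alpha-actinin 4, was the other gene with regions of both directions, all of them away from start sites. Within intron 1 an EIR-higher region 2712 bp from the canonical TSS (chr19:39141001-39141501, 6 against 18.3 tags, 3.05-fold, 1.22 to 9.10) was followed by 5 parental-higher regions, from 4548 to 42238 bp, with 19 to 36 parental tags. The highest of these held 36 against 11.7 tags (chr19:39157766-39158528, 3.07-fold, 1.66 to 5.92).

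Counted by gene, 13 of the 45 (28.9%) had a parental-higher region elsewhere in the gene body, beside 9.22% of all protein-coding genes and 23.8% of those at least as long as the median of the list. For EIR-higher regions the count was 5 (11.1%), beside 3.13% and 8.36%, and for either direction 16 (35.6%), beside 11.6% and 29.3%. Any region at all, near a TSS or in the body, was found for 26 of the 45 (57.8%), beside 30.5% of all coding genes. This last share was not computed for long genes, so the 57.8% is set beside no background of like gene length. The body regions held fewer tags than those at start sites but had a larger median fold, with a median of 25.0 parental tags and a fold of 2.73 over the 56 parental-higher ones, and 21.0 tags and 3.07 over all 3120 such regions in coding genes. The 7 EIR-higher ones had medians of 18.3 scaled EIR tags and 3.37-fold, beside 17.6 and 3.67 over 728. Because regions of few tags are listed only at large folds, the larger median fold in bodies cannot be separated from the selection of the lists.

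The sequence under the regions differed between start sites and gene bodies. In windows of 500 bp at the centres, the 28 parental-higher regions near TSSs had a median GC content of 68.7% (range, 30.8 to 79.0%), beside 72.8% over all 5196 of that kind, and an observed over expected CpG ratio of 0.763 beside 0.854. The 56 in gene bodies had 44.2% GC and a ratio of 0.205, beside 43.8% and 0.203 over all 5596 regions away from TSSs. GC boxes were found in 18 of the 28 (64.3%) and 4 of the 56 (7.14%), beside 74.8% and 11.4% of all regions of each kind.

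The counts of the other motifs were small, and their shares are set beside those over all regions of each kind. The AP-1 motif (TGANTCA, both strands) was in 1 of the 28 windows near TSSs (3.57%) and 9 of the 56 in bodies (16.1%), beside 7.51% and 20.2% overall. TEAD motifs were in 5 (17.9%) and 12 (21.4%), beside 14.0% and 26.8%, GATA motifs (GATAAG) in 1 (3.57%) and 11 (19.6%), beside 5.77% and 14.9%, and E-boxes (CACGTG) in 2 (7.14%) and 4 (7.14%), beside 8.12% and 5.27%. All 3 EIR-higher windows near TSSs held a GC box, found in 42.4% of all 495 of that kind, and 2 of the 3 a TEAD motif, found in 22.0%. Of the 7 EIR-higher windows in bodies 2 held a TEAD motif (28.6%, beside 30.0% of 1609), and none held another motif searched. Every window of 75 bases occurred once in the genome along 89 of the 94 regions, and of the other 5 only the *ITGB8* region at chr7:20393025-20393525 repeated much of its sequence elsewhere in the genome, in 35.1% of its windows.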

How the data were processed

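FLAG-SMARCA4 ChIP-seq was deposited for 1 library of parental TOV21G cells and 1 of EIR clone 3, grouped by their sample labels. The authors mapped the reads to hg19 with bowtie 0.12.9 and ran HOMER in histone style on each library against the other, at an FDR under 5%. Regions bound alike in both libraries are not in these lists. The deposited lists give a count of tags per region for the parental library, and the signal of the EIR library scaled by the authors to the parental total. The authors also deposited a normalized signal per 10000000 tags and a ratio, the fold between the libraries, with its Poisson p-value. That fold was used only to check the folds computed here, which differed from it by at most 0.309%, and the p-value only for an alternative and for ties. The deposited findPeaks score, clonal fold change and a column headed as region size were not used.

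EIR tag counts were recovered as estimated counts from the steps of the deposited scaled tags. Multiples of 0.733 accounted for 99.4% of the 173 distinct scaled values from 5 upward, within 0.05. Regions were joined to the TSSs of GENCODE release 44 on GRCh37, by nearest edge within 1 kb (1000 bp), and otherwise to the gene span. Ties for the nearest region went to the smallest p-value. Exon and intron numbers are those of the canonical transcript. Folds are parental tags over scaled EIR tags, or the reverse for EIR-higher regions, with exact Clopper-Pearson 95% intervals. The test on tags was an exact binomial one, two-sided, with Benjamini-Hochberg adjustment over all regions, which compares libraries and not conditions. The test and the interval were tried on simulated tags, and the join was compared with an exhaustive search over the regions of a single chromosome.

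All genes of the list are named. The nearest region within 1 kb and every EIR-higher region are given in full, as are the 10 body regions with most tags and, for each direction, the 5 with the largest fold. The rest are given as ranges. The genes and lists were chosen with earlier results of these data known. Sequences are from the GRCh37 reference. RNA-seq and other experiments of the study were not analysed here. Alternatives were windows of 500 bp and 5 kb, the distance from the centre, the 5′ end of each gene, a minimum fold of 2, a deposited p-value of at most 1e-06, the EIR library scaled 1.5 times higher or lower, 1 tag added to both libraries, tags summed over regions, and region centres inside the gene. Tools were scipy 1.17.1, pandas 2.3.3 and numpy 2.4.6 under Python 3.11.15, with matplotlib 3.10.9 and pysam 0.24.0.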

Additional observations from a re-analysis of the deposited data

How the results depend on the processing

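Of the 45 genes, 17 had a parental-higher region within 1 kb of a TSS, beside 23.2% of all coding genes. With the 5′ end of each gene only they became 10, beside 18.7%, and at a deposited p-value of at most 1e-06 11, beside 14.6%. With the EIR library scaled 1.5 times higher and an adjusted exact binomial p under 0.05, 5 remained (*ITGB1*, *ITGB5*, *LIMS1*, *PARVA* and *ZYX*), beside 8.13%. The count was within 1.5 times of 17 in 6 other settings. Among these, the exact binomial test alone and the EIR library scaled lower could not remove a parental-higher gene, so they do not test the count. The 3 EIR-higher genes became 5 with a window of 5 kb, 0 at the strict p-value and 0 with the EIR library scaled 1.5 times lower. The shares of all coding genes in these settings were 3.49%, 0.535% and 0.476%. The median fold of parental over EIR tags, 2.20 over the 20 nearest regions, was 1.47 with the EIR library scaled higher and 3.31 with it scaled lower. The 13 genes with parental-higher body regions became 7 with the EIR library scaled higher, and the 5 with EIR-higher ones became 1 at the strict p-value and 1 with the EIR library scaled lower. With the EIR library scaled higher, 69 of the 94 regions lost an adjusted p under 0.05, all among the parental-higher ones (28 near TSSs and 56 in bodies). With it scaled lower 9 lost it, all among the EIR-higher ones (3 near TSSs and 7 in bodies). Only the *PXN* region kept it among these (adjusted exact binomial *P* = 0.0153). With 1 tag added to both libraries on the parental scale, no fold can change direction, so the kept direction of all 94 regions tests nothing. That setting only made the folds smaller, and no test of the tags was run in it. The largest fold of the 94, at *ITGB8*, fell from 7.73 to 5.63, and the largest EIR-higher one, at *PXN*, from 4.54 to 3.95. Without the genes on chromosome 10, a setting chosen after seeing the data, the body counts were 11 and 4 genes. The shares of coding genes in that setting were 9.21% and 3.13%, and the body regions of the list fell in number from 63 to 35. The scaling rests on the total tags of each library. The lists hold only called regions, so an alternative can remove regions and add none beyond a wider window. No paired analysis was possible because each condition has 1 library, and no replicate could be left out. The smallest count in the higher library was 16 parental tags or 15.4 scaled EIR tags, so weaker sites are not seen at this depth.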

Other observations

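Other components of adhesions, outside the 45 genes, were mostly parental-higher near their start sites where listed, as were coding genes in general. Of 45 further adhesome genes, 24 (53.3%) had a parental-higher region within 1 kb of a TSS and 0 an EIR-higher one, beside 23.2% and 1.96% of all coding genes. Among the 4463 coding genes at least as long as the median of the first list, the shares were 34.6% and 2.87%. The lengths of the further genes were not compared, and the shares were not tested. The 24 genes had a median fold of 2.39 over their nearest regions, and 14 of the 45 had no region. Those with the most tags were *ASAP2*, an Arf GTPase-activating protein (160 parental and 65.2 EIR tags, 2.45-fold, 1.88 to 3.21), *KANK1*, a talin-binding scaffold (147 and 60.8 tags, 2.42-fold, 1.83 to 3.20), and *SORBS3*, the vinculin-binding vinexin (139 and 58.6 tags, 2.37-fold, 1.79 to 3.16). *ARHGEF7*, an exchange factor for Rac, had the largest fold, with 41 against 8.1 tags (5.08-fold, 2.57 to 11.0). In gene bodies, 13 of these 45 genes had parental-higher and 5 EIR-higher regions, beside 9.22% and 3.13% of all coding genes. Among the 4463 long coding genes the shares were 23.8% and 8.36%.

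Genes of the matrix proteins that integrins bind were also mostly parental-higher near a TSS where listed. Of 32 such genes, 9 (28.1%) had a parental-higher region there, with a median fold of 2.01, and 1 had an EIR-higher one, beside the same 23.2% and 1.96%, while 20 had no region. The laminin gene *LAMA5* had 127 parental and 55.7 EIR tags (2.28-fold, 1.70 to 3.07), and *NPNT*, which encodes the ITGA8 ligand nephronectin, had 119 and 64.5 (1.84-fold, 1.39 to 2.46). *COL4A1* and *COL4A2*, the divergent collagen IV genes, share 1 region with 48 and 24.2 tags. The EIR-higher gene was *COL6A1*, a collagen VI chain, with 10 parental and 30.1 EIR tags (3.01-fold, 1.48 to 6.73).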
